A study of Rattus norvegicus with 7 samples.

Results

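The small nucleolar RNAs SNORD115 and SNORD116 were followed across the first weeks of life of the rat retina. Members were all features annotated as snoRNA whose gene symbol or description holds SNORD115 or SNORD116. This gave 37 of the 5491 features with values, 12 copies of SNORD115 and 25 copies of SNORD116, out of 416 snoRNA features in all. No copy was left out by a filter, and 31 of the 37 copies were above 0 at every age.

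Small RNA was sequenced from the retinas of untreated Wistar WU rats at 7 ages, P1, P3, P5, P7, then P10, P15, last P21, with P0 as birth. RNA from 3 retinal samples was pooled at each age, and the study states that each pool was sequenced 2 times. Each age has 1 deposited sample with 1 value per feature, called 1 library here. There are thus 7 libraries in this sense and no replicate values at any age. Values are FPKM, alignments per feature corrected for its length and for the size of the library, with a correction that grows faster than in proportion as the feature gets shorter. P21 served as the reference age, and a difference is given as log2(FPKM + 1) at an age minus the same at P21. With 1 library per age no test was run and no p-value is given: a difference between ages is a difference between pooled libraries, and 2-fold serves only as a fixed size for counting copies.

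SNORD115 and SNORD116 are C/D box snoRNAs, a class whose best known members guide methylation of ribosomal RNA at sites to which they are complementary. Both families are known from tandem arrays in the imprinted Prader-Willi and Angelman region, where they are released from the introns of a long host transcript made from the paternal chromosome, mainly in neurons. SNORD115 carries a stretch complementary to the messenger RNA of the serotonin receptor 2C. SNORD116 has no settled target, and loss of its array is linked to central features of Prader-Willi syndrome. In a bulk retina sample, fewer cells that make these RNAs and less RNA per cell cannot be told apart.

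All 37 copies were placed on chromosome 1 of Rnor_6.0, and they are numbered here by position within each family. SNORD115 copies 1 to 3 lay between 56860067 and 56875310, and copies 4 to 12 between 116740855 and 116763723, all on the minus strand. SNORD116 copies 1 and 2 lay between 117143597 and 117146013 on the minus strand, and copies 3 to 8 between 121377907 and 121393939 on the plus strand. The other 17 copies of SNORD116, numbers 9 to 25, lay between 194848328 and 194988899 on the minus strand. SNORD115 copies 4 to 12 and SNORD116 copies 1 and 2 are in neighbouring arrays on the same strand, and the other arrays lie further apart. Which of them belong to the imprinted region was not examined. Copies of such families can be near-identical, which was not examined here for lack of their sequences. Reads may then be shared: an alignment may have been placed at a copy it did not come from, and the level of a single copy is less certain than the sum of its family.

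The values did not always describe the whole copy. Each deposited value belongs to a window that starts within the annotated copy, and the window held at least 90% of the copy for 9 of 12 SNORD115 copies and 17 of 25 SNORD116 copies. The windows of SNORD115 copies 10, 11 and 12 covered only the start of the copy, over 46, 32 and 31 bases. In SNORD116, 4 windows covered only the start, over 49 to 51 bases, and 4 only the end, over 28 to 57 bases. The windows of SNORD116 copies 17 and 24 ran to 134 and 122 bases, past the annotated end.

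**Figure D1:**
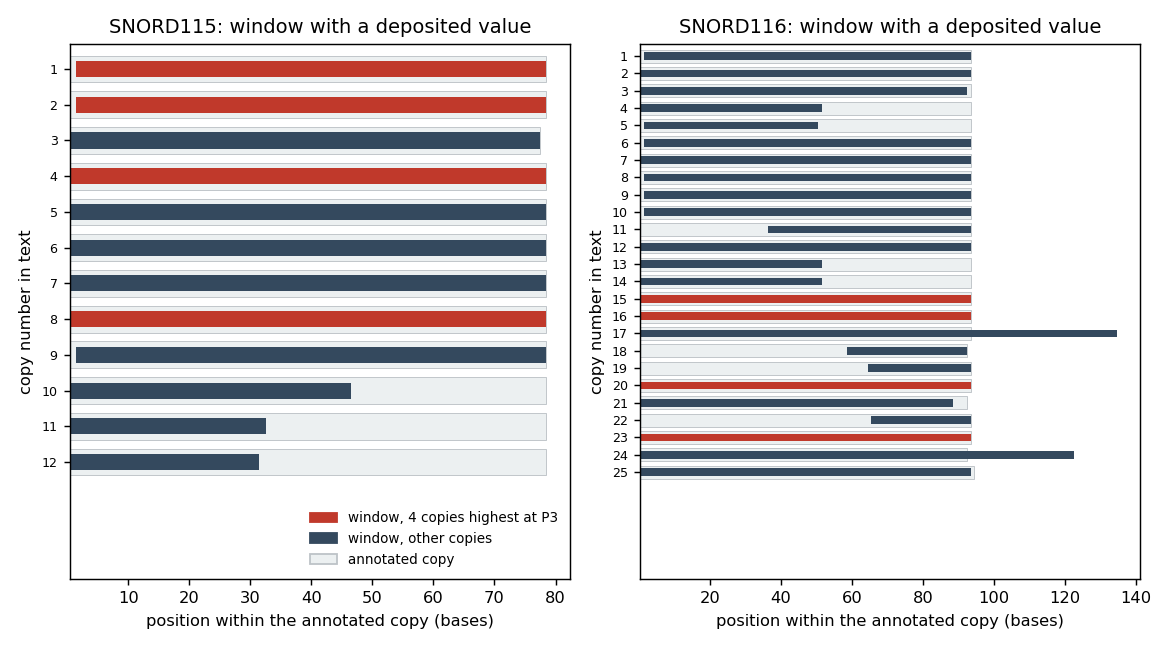
Window of each copy that has a deposited value, drawn along the annotated copy in bases, for SNORD115 (left, 12 copies) and SNORD116 (right, 25 copies). Pale bars are the annotated copies and dark or red bars the windows; all 8 red windows, those of the 4 copies per family with the highest FPKM at P3, span whole copies.

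Short windows raise FPKM. At P1, 1 alignment was worth 66.1 FPKM in SNORD116 copy 2, with a window of 93 bases, 799 FPKM in SNORD115 copy 12, with 31 bases, and 1039 FPKM in SNORD116 copy 22, with 28 bases. The 3 partial copies of SNORD115 therefore made up 63.4% of the family's FPKM at P21 and 20.3% of its alignments. In SNORD116 the 4 partial copies that cover only the end made up 36.5% of the FPKM and 7.70% of the alignments at that age. Shares, ratios and differences given in alignments, here and below, are FPKM divided by the worth of 1 alignment at P1. They are a signal corrected for window length and not a count of reads. Where copies or families are compared in FPKM below, part of the difference comes from the length of their windows.

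Before the levels, the libraries themselves need a description, since some stood apart. Low FPKM values at P1 were whole multiples of a single step, the worth of 1 alignment, which gives 65 alignments for all SNORD115 copies and 70 for all SNORD116 copies at that age. At P3, P5, P7, P10 and P15 the values were whole-number sums of a pair of steps, and at P21 of 4 steps. Such a value is what a mean over separately scaled parts of a library would give, and these parts are called read sets here. Read set A is the set with the smaller step, hence more reads, and read set B the other. The labels do not say what the sets are. The methods of the study state that each pool was sequenced 2 times, the same number as the sets at P3 to P15. Whether the sets are those repeats cannot be told, since P1 has 1 set and P21 has 4. Whole numbers of alignments mean that reads were not split into fractions among copies, but whether a read was counted at a single copy or at several cannot be told. The alignments of a copy in each set follow from its FPKM, and at the ages with a pair of steps at least 99.9% of the values tried could be written as such a sum. At P21 the 4 sets could not be separated for these copies, and only their mean is given.

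The P3 library differed from the rest in its snoRNAs. The summed FPKM of all 416 snoRNA features was 3591449 at P1, then 18179896 (P3), 4052541 (P5), 5174024 (P7), 5844887 (P10), 2659177 (P15), last 3688658 (P21). After the length of each window was taken out, snoRNAs made up 34.4% of the P3 signal, while the share elsewhere ran from 2.28% to 9.61%. At P3 the sets also differed: among 154 other snoRNA features with at least 20 alignments, 150 had the higher level in set A, with a median log2 difference of set B from set A of -4.51. It was -5.06 over 82 snRNA features, so the difference was not one of snoRNAs alone. The same median over 233 miRNA features was -1.48 and over 291 lincRNA features -0.24. The family sums at P3 are therefore given for both sets and the order of ages without P3. Counts and medians over lists of snoRNAs at P3 are given only for the whole library.

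The summed FPKM of the 12 SNORD115 copies was 9857 at P1, then 84119 (P3), 23957 (P5), 11817 (P7), 53198 (P10), 30473 (P15), last 34986 (P21). It was thus highest at P3 and next highest at P10, with low points at P1 and P7, and without P3 the highest age was P10. After scaling to the summed snoRNA level the highest age was P15, and by snoRNA median of ratios it was P10. For the 25 SNORD116 copies the sum was 9020 at P1, then 163264 (P3), 22076 (P5), 42694 (P7), 75100 (P10), 62501 (P15), last 102078 (P21). SNORD116 was also highest at P3 and lowest at P1, and without P3 it was highest at P21 as deposited. That order depends on the windows. Without P3, P10 was highest with whole windows only, 53338 FPKM against 37521 at P21, and also in alignments. Scaled to the summed snoRNA level or by snoRNA median of ratios, SNORD116 was highest at P21 with P3 included. SNORD116 was above SNORD115 by 3.61-fold at P7 and 2.92-fold at P21, and the ratios at P1 and P5 were 0.915 and 0.921. These ratios depend on the windows: in alignments they were 5.16 and 4.63 at P7 and P21 but turned above 1 at P1 (1.08) and P5 (1.81), and with whole windows only they were 3.28, 2.93 and 0.675 at P7, P21 and P1 and turned to 1.22 at P5.

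At P1 SNORD116 stood further below its P21 level than SNORD115 did. The difference of the summed level was -3.50 for SNORD116 (95% interval -4.15 to -2.85) and -1.83 for SNORD115 (-2.46 to -1.20). These intervals and those below come from the alignments and cover counting error only, and they are too narrow where a read was counted at several copies. At P21 the alignments were not separated, and each was given the largest step of that library. The P21 part of a difference from P21 is therefore an upper limit of its counting error. The SNORD116 difference was -1.57 after scaling to the median of ratios of 351 snoRNA features, while the SNORD115 difference turned to 0.10 on that scale, since the typical snoRNA was itself lower at P1. The SNORD115 difference was also smaller, at -1.20, after scaling to the miRNA sum, at -1.34 in alignments and at -1.22 with whole windows only. The direction at P1 thus held on every scale tried for SNORD116 and not for SNORD115.

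By copy, all 25 SNORD116 copies were at least 2-fold lower at P1 than at P21, and none was higher, and 15 were lower by snoRNA median of ratios. For SNORD115, 7 of 12 copies were at least 2-fold lower and none was higher, against 4 lower on the miRNA sum, while the median of ratios turned the balance to 2 lower and 4 higher. Over all 5491 features, 26.4% were at least 2-fold lower at P1 and 32.4% at least 2-fold higher, and over all 416 snoRNA features, 71.9% were lower and 9.13% higher. The difference between the SNORD115 share and that of all snoRNAs was not tested. Medians were -3.36 for SNORD116, -1.06 for SNORD115, -1.93 for all snoRNAs and 0.15 for all features. With the 3 SNORD116 copies listed at 0 at P1 placed at the limit of 3 alignments, the SNORD116 median was -3.08. Of the SNORD116 copies, 14 had at least 3 alignments at P1, and all 14 were at least 2-fold lower. Of the SNORD115 copies 10 had that many, and 5 of them were at least 2-fold lower.

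The difference at P15 was small in SNORD115, -0.20 (-0.80 to 0.40), an interval that holds 0, and the 3 other scalings turned it to between 0.22 and 0.28. It was -0.75 in read set A and turned to 0.20 in read set B, with the sets 0.94 (0.12 to 1.77) apart. In SNORD116 it was -0.71 (-1.03 to -0.38), and between -0.29 and -0.22 after the 3 other scalings. At P15 against P21, 7 of 25 SNORD116 copies (28.0%) were at least 2-fold lower and none was higher, beside 24.7% of all features and 29.6% of all snoRNAs that were lower and 14.7% and 11.1% that were higher.

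The P3 sums rested on few copies. In each family 4 copies were far above the rest at P3, and these were singled out after their values were seen: SNORD115 copies 1, 2, 4 and 8, and SNORD116 copies 15, 16, 20 and 23. The lowest of the 4 in SNORD115 had 13103 FPKM at P3 and the next copy, copy 11, had 2922 FPKM. In SNORD116 the lowest of the 4 had 34938 FPKM and the next, copy 4, had 2302 FPKM. These 4 copies made up 86.4% of SNORD115 FPKM and 88.1% of SNORD116 FPKM at P3, against 18.7% and 15.1% at P21. In alignments scaled by the P1 worth, free of window length but not counted reads, the shares were 91.3% and 90.9% at P3 and 40.6% and 30.1% at P21.

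SNORD115 copy 8 (ENSRNOG00000058531.1, 116751203 to 116751280) had 857 FPKM at P1, then 23311 (P3), 1480 (P5), 1730 (P7), 6882 (P10), 2306 (P15), last 1427 (P21). SNORD115 copy 4 (ENSRNOG00000056852.1, 116740855 to 116740932) had 666 FPKM at P1, then 21729 (P3), 2215 (P5), 1464 (P7), 7656 (P10), 1176 (P15), last 1445 (P21). Both were high at P3, had a smaller high point at P10, and lay near a common level at P5, P7, P15 and P21. SNORD115 copy 1 (ENSRNOG00000059948.1, 56860067 to 56860144) had 391 FPKM at P1, then 13103 (P3), 1936 (P5), 2195 (P7), 6806 (P10), 1966 (P15), last 2603 (P21). SNORD115 copy 2 (ENSRNOG00000058803.1, 56872995 to 56873072) had 685 FPKM at P1, then 14494 (P3), 1452 (P5), 1181 (P7), 5490 (P10), 1258 (P15), last 1066 (P21). Copies 1 and 2, from the other array, also had their highest value at P3 and their next highest at P10.

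SNORD116 copy 20 (ENSRNOG00000051811.1, 194931871 to 194931963) had 397 FPKM at P1, then 36353 (P3), 2191 (P5), 4680 (P7), 11176 (P10), 2784 (P15), last 4224 (P21). SNORD116 copy 23 (ENSRNOG00000059940.1, 194971474 to 194971566) had 198 FPKM at P1, then 37295 (P3), 1771 (P5), 4499 (P7), 10622 (P10), 2339 (P15), last 3651 (P21). Their profiles were close to each other at every age from P3 on. SNORD116 copy 16 (ENSRNOG00000054305.1, 194921667 to 194921759) had 463 FPKM at P1, then 34938 (P3), 1818 (P5), 5241 (P7), 11233 (P10), 2615 (P15), last 3767 (P21). SNORD116 copy 15 (ENSRNOG00000058825.1, 194917277 to 194917369) had 198 FPKM at P1, then 35201 (P3), 1726 (P5), 4516 (P7), 10745 (P10), 3467 (P15), last 3727 (P21). The highest of these 4 copies was above the lowest by only 1.07-fold at P3 and 1.06-fold at P10, where the 4 SNORD115 copies spanned 1.78-fold and 1.39-fold. All 4 lay in the array of 17 copies on the minus strand, and none of the copies in the other SNORD116 arrays reached their P3 level.

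**Figure D2:**
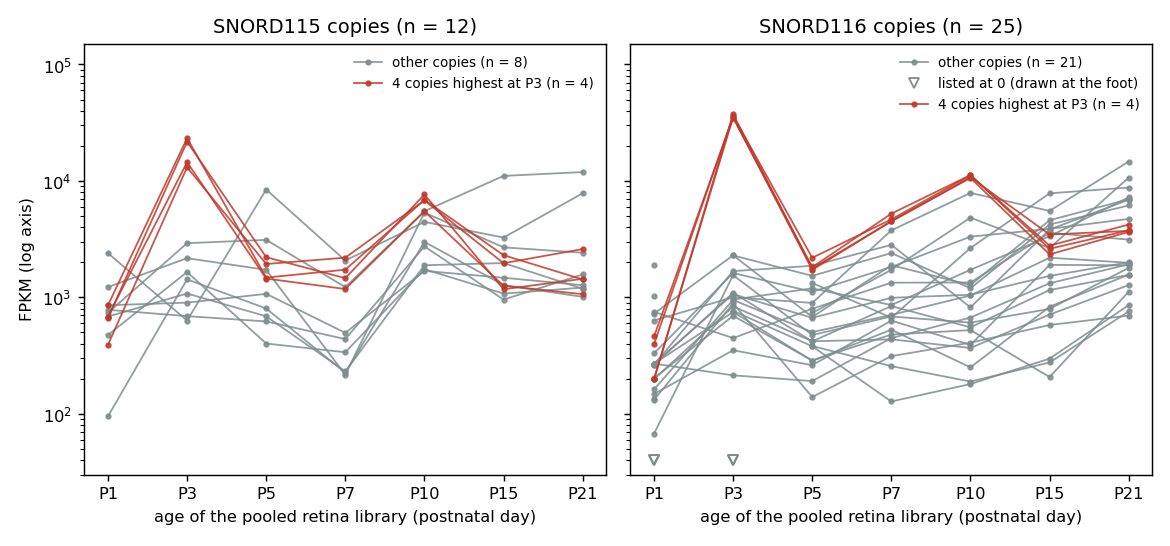
FPKM of each copy (log axis) in the pooled retina library of each age from P1 to P21, for SNORD115 (left, 12 copies) and SNORD116 (right, 25 copies); each line is 1 copy, red for the 4 copies per family highest at P3, and triangles at the foot mark ages at which copies are listed at 0. Red lines stand apart at P3 and again near the top at P10, while most grey SNORD116 lines are highest at P21.

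The P3 level of the 4 SNORD115 copies came almost wholly from 1 read set, and for the 4 SNORD116 copies this depends on which sum is taken. SNORD115 copy 8 had 303 alignments in set A and 3 in set B at P3, copy 4 had 284 and 2, copy 1 had 167 and 1, and copy 2 had 179 and 4. As a level within each set, the 4 copies together stood at 142250 FPKM in set A and 3025 FPKM in set B, 47.0-fold apart. The set B level was below the 6540 FPKM of the same copies at P21, and the set A level far above it. For the 4 SNORD116 copies at P3, 2 sums fit each value. The closer sum gives 665 to 710 alignments in set A and 0 to 1 in set B for each copy, with summed levels of 287161 and 414 FPKM. The other sum gives 238 to 283 alignments in set A and 216 to 217 in set B, with summed levels of 108222 and 179353 FPKM, and the arithmetic does not choose between them. Among 93 other snoRNA features under 100 bases, all 93 were higher in set A at P3, with a median of -4.61 for set B minus set A. Which sum holds was not tested. Set B held 29 alignments at all 12 SNORD115 copies together and 19 at the other 21 SNORD116 copies.

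Over a whole family the difference of P3 from P21 depended on the set and, in SNORD116, on the sum. For SNORD115 it was 1.27 (0.90 to 1.63) as deposited, 2.17 in set A alone and -1.70 in set B alone. For SNORD116 it was 0.68 (0.49 to 0.87) as deposited, 1.66 in set A alone and -4.34 in set B alone with the closer sum. With the other sum it was 0.48 in set A and 0.85 in set B, so the direction in set B turned with the sum taken. Without the 4 high copies the differences were -1.31 and -2.15. Those copies were chosen by their P3 values, so this drop was set by the choice and decides nothing. After scaling to the summed snoRNA level the differences were -1.04 and -1.62 over all copies. The snoRNA median of ratios gave 0.00 for SNORD115 and turned SNORD116 to -0.59. On the miRNA sum the differences were 2.13 and 1.54, in alignments 2.31 and 1.63, and with whole windows only 2.61 and 2.04. Whether P3 lies above or below P21 was therefore not settled by these data for either family.

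At P10 the high copies differed between sets as well. The 4 SNORD116 copies had 1003 alignments in set A and 19 in set B, levels of 82059 and 5490 FPKM. The 4 SNORD115 copies had 312 and 39 alignments at P10, levels of 37237 and 16430 FPKM. The set A levels were above P21 in both families, and in set B the SNORD116 level was below P21 (15369 FPKM) and the SNORD115 level above it. At P7 the order of sets was turned round, with 8662 FPKM in set A and 29208 in set B for the 4 SNORD116 copies and 3327 and 9813 FPKM for the 4 SNORD115 copies. The medians over other snoRNA features leaned the same way at these ages, -0.75 at P10 and 1.27 at P7 for set B minus set A, on 173 and 187 features. At P5 that median was -0.29, with -1.61 for the 4 SNORD115 copies and -0.92 for the 4 SNORD116 copies. At P15 it was 0.66, with 0.47 (-0.40 to 1.34) for the 4 SNORD115 copies. The 4 SNORD116 copies went the other way at P15, with -0.68 (-1.33 to -0.03).

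The other 21 SNORD116 copies gave a different course. Their summed FPKM was 7764 at P1, then 19477 (P3), 14570 (P5), 23758 (P7), 31325 (P10), 51296 (P15), last 86709 (P21). As deposited, each age from P5 on was above the one before, and P21 stood 5.95-fold above P5. The step from P7 to P10 did not hold on the miRNA sum, where these ages were -1.216 and -1.224 from P21. It was also absent in the 6 copies on the plus strand, with 6816 FPKM at P7 and 3997 at P10. Since the 4 copies taken out were chosen by their P3 values, that P3 is not the highest age of the rest is partly set by that choice, and over all 25 copies P3 was highest as deposited, on the miRNA sum, in alignments and with whole windows. The same 4 copies were also high at P10, with 43775 FPKM against 15369 at P21. That P21 lies above P10 in the rest is thus also partly set by the choice. With that limit, P21 was the highest age of the 21 copies on all 6 scales tried, with a P21 level 3.98-fold to 6.54-fold that of P5. The lowest age was P1 or, after scaling to the summed snoRNA level or to the snoRNA median of ratios, P3.

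Both read sets showed this course from P5 to P15. In set A the level of the 21 copies was 16912 FPKM at P5, 19137 at P7, 32608 at P10 and 53654 at P15. In set B it was 12227 FPKM at P5, 28380 at P7, 30042 at P10 and 48938 at P15. The log2 difference of set B from set A was -0.47 (-1.37 to 0.43) at P5, 0.57 (0.06 to 1.08) at P7, -0.12 (-0.99 to 0.76) at P10 and -0.13 (-0.80 to 0.53) at P15, so that only the P7 interval left out 0. At P3 the sets were apart, with 34315 FPKM in set A from 237 alignments and 4639 FPKM in set B from 19 alignments. Both P3 levels were below the P21 mean.

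**Figure D3:**
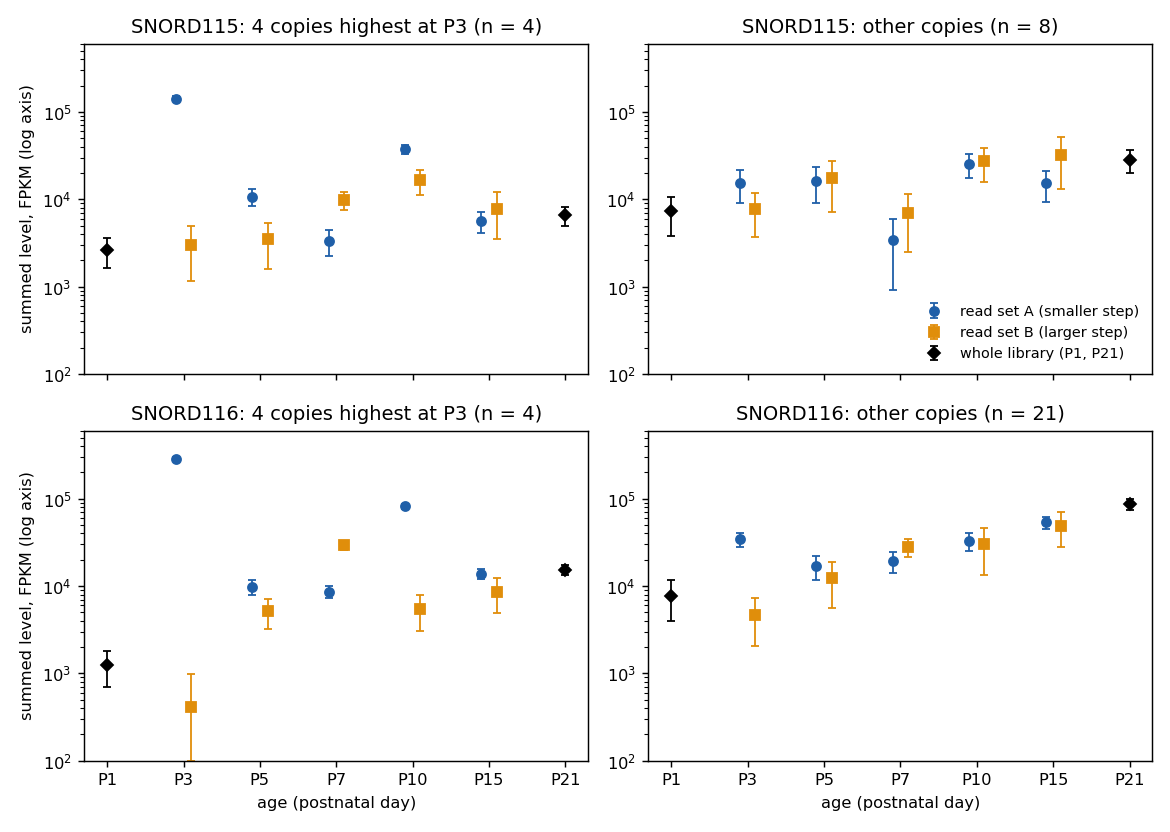
Summed FPKM (log axis) by age within read set A (circles) and read set B (squares), and over the whole library at P1 and P21 (diamonds), for the 4 copies highest at P3 (left) and the other copies (right) of SNORD115 (top) and SNORD116 (bottom); bars are 95% counting intervals, ended at the axis foot, and the closer sum is used for the 4 SNORD116 copies at P3. The sets are far apart on the left at P3 and close together at lower right from P5 to P15, where the P21 level of 86709 FPKM is highest.

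Among the 21 copies, 17 were highest at P21, 3 at P15 and 1, copy 25, at P3. The same count was not made over all features or all snoRNAs, so these numbers only describe the copies. The low count at P3 is partly set by the choice of copies left out. Copy 18 (194926674 to 194926765), with a window of 34 bases at the end of the copy, had the highest mean FPKM of them, in a window short enough to raise it. It had 634 FPKM at P1, then 1004 (P3), 897 (P5), 3766 (P7), 7893 (P10), 5532 (P15), last 14692 (P21), on 1 alignment at P1. Copy 2, a whole-window copy in the smallest SNORD116 array, had 330 FPKM at P1, then 1620 (P3), 1117 (P5), 1827 (P7), 3324 (P10), 3880 (P15), last 4724 (P21). Both were lowest at P1 and highest at P21, although their windows and arrays differ.

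All arrays of SNORD116 were lower at P1 than at P21. Without the 4 high copies, the sum at P21 was above that at P1 by 11.8-fold over the 2 copies of the smallest array, 11.4-fold over the 6 copies on the plus strand and 11.1-fold over 13 copies of the largest array. These folds rest on 7, 16 and 28 alignments at P1, too few to compare the arrays. Against P10, the sum at P21 was 1.56-fold, 5.11-fold and 2.55-fold higher in the same order. With whole windows only, 13 copies gave a difference of -3.18 at P1 and -0.50 at P15.

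Copies at 0 were few. SNORD116 copy 13 (194892124 to 194892216) had the largest P1 difference by the log2(FPKM + 1) scale, since it was listed at 0 at P1. Its later values were 959 FPKM (P3), 1196 (P5), 860 (P7), 1727 (P10), 3350 (P15), last 7235 (P21). Against the limit of 3 alignments at P1, its P21 level was at least 9.96-fold higher. Copies 14 and 24 were also listed at 0 at P1, with limits of at least 8.49-fold and 7.40-fold, and copies 1, 19 and 22 were listed at 0 at P3. The smallest P1 difference in SNORD116 was -2.06, in copy 11, with 753 FPKM at P1, then 448 (P3), 799 (P5), 1338 (P7), 1344 (P10), 3591 (P15), last 3136 (P21).

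The other 8 SNORD115 copies did not show that course. Their summed FPKM was 7257 at P1, then 11482 (P3), 16875 (P5), 5247 (P7), 26365 (P10), 23766 (P15), last 28446 (P21). In FPKM, the P10 and P15 intervals against P21 held 0, and P7 was low. P10 was -0.11 from P21 in FPKM but turned to 0.56 in alignments and 0.82 with whole windows only. At P7, 8 of all 12 SNORD115 copies were at least 2-fold below P21, and these were the 8 copies here, on 38 alignments, beside 21.0% of all features and 28.1% of all snoRNAs. The highest age was P21 as deposited and P10 or P15 on the 5 other scales tried, so no highest age is named for these copies. By copy, 5 of the 8 were highest at P10, a count that was likewise not made over all features.

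The short-window copies weigh heavily in that sum. SNORD115 copy 11 (116758148 to 116758225), with the largest P1 difference in its family, -4.01, had 737 FPKM at P1, then 2922 (P3), 3121 (P5), 1226 (P7), 5505 (P10), 11046 (P15), last 11924 (P21). Its P1 value was a single alignment. SNORD115 copy 12 (116763646 to 116763723) had 2397 FPKM at P1, then 633 (P3), 8439 (P5), 2074 (P7), 4450 (P10), 3268 (P15), last 7841 (P21), from 1 to 11 alignments at the ages before P21. SNORD115 copy 5 (116742683 to 116742760), a whole-window copy with the smallest P1 difference, -0.57, had 857 FPKM at P1, then 902 (P3), 1073 (P5), 497 (P7), 1689 (P10), 1475 (P15), last 1273 (P21). The age of the highest value thus differed among these copies, and the third partial copy, copy 10, was highest at P10 like copy 5.

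The counts at P3 can be set beside those of other snoRNAs. At P3, 4 of 12 SNORD115 copies and 4 of 25 SNORD116 copies were at least 2-fold above P21, and 3 and 14 were at least 2-fold below. The copies above P21 are the same 4 per family that were singled out by their P3 values. Over all features 26.4% were at least 2-fold higher at P3 and 22.1% lower, and over all snoRNAs 52.6% were higher and 20.4% lower. Of 149 other snoRNAs under 100 bases, the length class of both families, 128 were at least 2-fold higher at P3 and 5 lower, with a median of 3.26. The medians at P3 were 0.15 for SNORD115 and -1.07 for SNORD116. With the 3 copies listed at 0 placed at their limits, 13 SNORD116 copies were at least 2-fold lower at P3. These counts rest on the P3 library described above.

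At P5, P7 and P10 most SNORD116 copies were also below P21, with medians of -1.97, -1.39 and -1.49 and 23, 20 and 16 of 25 copies at least 2-fold lower. Of all features 21.5%, 21.0% and 23.3% were lower at these ages, and of all snoRNAs 34.4%, 28.1% and 26.7%. No SNORD116 copy was at least 2-fold higher at P5 or P7, and 4 of 25 were at P10, beside 26.6%, 32.2% and 21.2% of all features at these ages and 25.2%, 27.2% and 32.7% of all snoRNAs. The medians of the 149 other short snoRNAs at those ages were 0.71, 0.74 and 1.19. The 186 other snoRNAs of 100 bases or more had medians of -1.02, -0.38 and -0.67. SNORD116 was thus below both classes at each of these ages, a description of these libraries that was not tested.

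**Figure D4:**
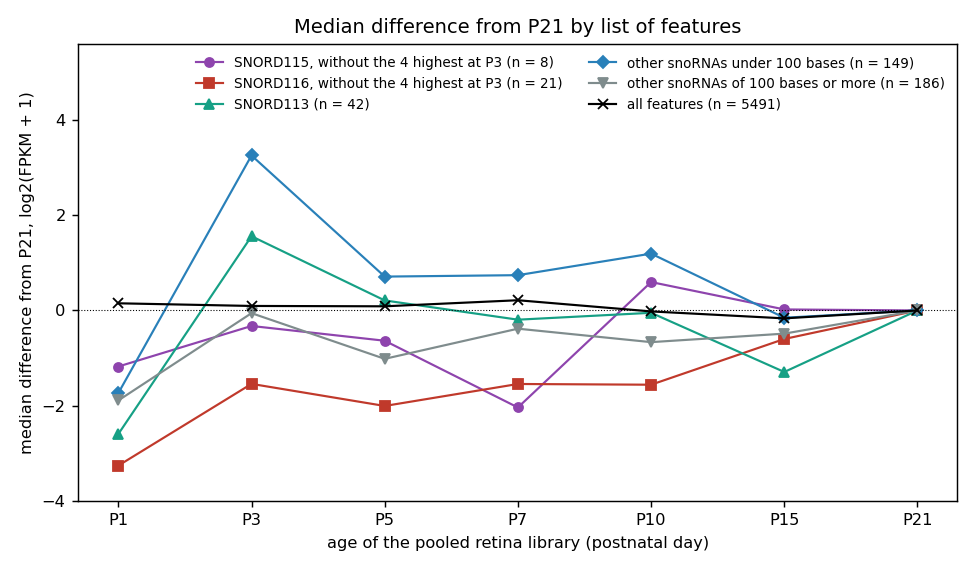
Median difference from P21 in log2(FPKM + 1) at each age for SNORD115 and SNORD116 without the 4 copies highest at P3, for SNORD113, for other snoRNAs by length and for all 5491 features. The line of the 21 SNORD116 copies lies lowest at P1, P3, P5 and P10, and only the SNORD115 line at P7 and the SNORD113 line at P15 run below it. The place of both family lines at P3 is partly set by the choice of copies left out.

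SNORD64, a snoRNA also known from the imprinted region, had 2 features, within and beyond the largest SNORD116 array. The feature at 194954515 to 194954581, among the SNORD116 copies, had 396 FPKM at P1, then 7734 (P3), 1398 (P5), 1649 (P7), 2867 (P10), 1079 (P15), last 800 (P21). The feature at 195068911 to 195068977 had 264 FPKM at P1, then 8878 (P3), 1306 (P5), 1219 (P7), 3226 (P10), 674 (P15), last 801 (P21). Both were highest at P3 and next highest at P10, as the 4 high SNORD116 copies were, but at P5 and P7 they were above P21, where the sum of those 4 copies was below P21 at P5. No snoRNA feature was named SNORD107, SNORD108 or SNORD109.

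SNORD113, a tandem snoRNA family of the imprinted Dlk1-Dio3 region, gave a comparison from another array. Of its 42 features, 39 lay on chromosome 6. At P1, 34 of 42 were at least 2-fold below P21 and none above, with a median of -2.60. At P3, 25 were at least 2-fold above and none below, and at P15, 25 were at least 2-fold below and 3 above, with a median of -1.29. At P15, 59.5% of SNORD113 was thus lower, beside 24.7% of all features and 29.6% of all snoRNAs, and 7.14% higher, beside 14.7% and 11.1%. Its most abundant feature (chromosome 6, 133795080 to 133795160) had 17148 FPKM at P1, then 159328 (P3), 64435 (P5), 43978 (P7), 59495 (P10), 43777 (P15), last 28750 (P21). These shares, 81.0% lower at P1 and 59.5% higher at P3, stand beside 71.9% and 52.6% of all snoRNAs, so a low P1 level was common to most snoRNAs and not particular to these families.

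Profiles most like the family sums were sought among 373 other snoRNA features with a mean of at least 100 FPKM, by Pearson r over the 7 ages after the median snoRNA of each library was subtracted. The highest r to SNORD115 was 0.959, for SNORD27 on chromosome 1, followed by SNORD57 (0.916) and SNORD110 (0.876) on chromosome 3. For SNORD116 it was 0.930, for SNORD87, followed by SNORA66 (0.901) and a U8 feature (0.805). For the 21 SNORD116 copies alone, the highest was SNORA31 on chromosome 15, with r of 0.995 and 550 FPKM at P1, then 1167 (P3), 1040 (P5), 1485 (P7), 1954 (P10), 3406 (P15), last 6858 (P21). SNORA31 is an H/ACA box snoRNA, of the class that guides pseudouridylation. Without P3, r was 0.959 for SNORD27 and 0.992 for SNORA31, both still the highest, and 0.926 for SNORD87, which then ranked 3. The points share the 7 libraries and their read sets, and with so many features ranked a high r is a description only.

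The libraries also differed in miRNAs of other tissues. Of the retina markers, 3 of 4 were found, at 5 features. Mir124-1 was the most abundant, with 391668 FPKM at P1 and 4500000 at P21, except at P10 and P15, where Mir124-3 was slightly higher. Their summed FPKM was 1137717 at P1, then 3273816 (P3), 6288004 (P5), 5892918 (P7), 8445632 (P10), 9271822 (P15), last 12357842 (P21). This sum, mostly Mir124, was highest at P21, as were the 21 SNORD116 copies, while Mir183 and Mir96 were highest at P10. None was at 0, and their part in the result was not tested.

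Of the skeletal muscle markers, 3 of 5 were found, Mir206, Mir133b and Mir1b, none at 0 at any age. Their summed FPKM was 7439 at P1, then 165251 (P3), 100176 (P5), 4840 (P7), 11665 (P10), 7905 (P15), last 5702 (P21). Mir206 was the most abundant at every age but P21, where Mir1b had 2769 FPKM and Mir206 1652. Muscle miRNAs were high at P3 and P5. At P3 the level of the muscle markers was 14631 FPKM in set A and 315872 FPKM in set B, and at P5 it was 9995 and 190357 FPKM, so the sets of these ages differ in more than snoRNAs. Their part in the result was not tested.

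Both lens and cornea markers were found, none at 0, and Mir184 was the more abundant at every age but P5. Their sum was 29289 FPKM at P1, then 17531 (P3), 11496 (P5), 882 (P7), 5910 (P10), 2140 (P15), last 15246 (P21). At P3 that sum was 2606 FPKM in set A and 32455 FPKM in set B. Of the red blood cell markers, 2 of 3 were found, Mir451a and Mir144, with sums of 16876 FPKM at P1, then 4120 (P3), 8971 (P5), 4737 (P7), 13984 (P10), 7635 (P15), last 13251 (P21). The lens and cornea markers differed: Mir205 was highest at P3 and P5, where Mir184 was below its P1 level, with Mir205 at 503 FPKM at P1, 6154 at P3, 6843 at P5 and 426 at P7. Neither list held a feature at 0, and their part in the result was not tested.

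The pigment epithelium markers Mir204 and Mir211 were both found, with Mir204 the most abundant and neither at 0. Their sum was 87709 FPKM at P1, then 168716 (P3), 154026 (P5), 141125 (P7), 287111 (P10), 455449 (P15), last 483914 (P21). The endothelial marker Mir126a had 42554 FPKM at P1, then 14666 (P3), 14921 (P5), 7031 (P7), 24362 (P10), 40166 (P15), last 33548 (P21). The pigment epithelium sum was highest at P21 and Mir126a at P1, and their part in the result was not tested.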

How the data were processed

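Small RNA libraries were made from pooled retinas and sequenced by the authors, who mapped the reads and made FPKM values with Cufflinks and Cuffdiff 2.2.1.3 on Rnor_6.0, per the submitters' processing notes. The deposited table holds 21 pairs of ages, and the FPKM of a feature at an age was the same in every pair (0 differing values). The table's fold changes, p-values and q-values from the authors' own comparisons were not used. Each log2 value adds a pseudocount of 1. The worth of 1 alignment was found for 356 of 724 window lengths from P1, which covered all 37 copies, and FPKM values were written as whole-number sums of the steps of each library, within the rounding of the deposited digits. Set levels assume that a deposited value is the mean of its sets. The worth was known for 4600 of 5491 features and interpolated by length for the rest. Estimated alignments over all features were 318787 at P1. From P3 to P21 they were worked out with equal signal in each set, as 497293, 412576, 597643, 457365, 449136 and 1354782. Equal signal is an assumption. With all signal in the set of the largest or of the smallest step, the estimate was 126951 or 771321 at P15. At P21 it was 445999 or 1779788. The method was tested on simulated data. The text names, per family, the 5 copies with the highest mean FPKM and those with the largest and smallest P1 difference, and others as stated. Members and lists were chosen with earlier results of these data known. Markers were matched by symbol, with Mir451a and Mir126a standing for Mir451 and Mir126. None of the 37 copies was found in the RefSeq gene list used here. Software was Python 3.11.15, numpy 2.4.6, pandas 2.3.3, scipy 1.17.1 and matplotlib 3.10.9. Alternatives were 3 scalings between libraries, pseudocounts of 0.1 and 10, choices of copies, ages left out and, chosen after seeing the data, single read sets with either sum, alignments in place of FPKM, whole windows and a minimum of 3 alignments.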

Additional observations from a re-analysis of the deposited data

How the results depend on the processing

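Pseudocounts of 0.1 and 10 moved no summed difference, and counting identical copies a single time changed nothing, since no copies had identical values. Read sets, alignments in place of FPKM, whole windows, the copies without the 4 highest at P3, and the minimum of 3 alignments were chosen after seeing the data. Read sets give no alternative at P1, which has 1 set, and no replicate could be left out, as each age has 1 library. The cause of the differences below was not tested.

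For P3 against P21, SNORD115 was 1.27 as deposited, -1.04 scaled to the snoRNA sum, 2.13 scaled to the miRNA sum, 0.0019 by snoRNA median of ratios, 0.86 without the most abundant copy, 2.17 in read set A, -1.70 in read set B, 2.31 in alignments, -1.31 without the 4 copies highest at P3 and 2.61 with whole windows only. SNORD116 was 0.68 as deposited and, in the same order, -1.62, 1.54, -0.59, 0.38, 1.66, -4.34, 1.63, -2.15 and 2.04, with read sets by the closer sum for its 4 copies highest at P3. With the other sum that fits, also added after seeing the data, read set A gave 0.48 and read set B 0.85. The 4 copies were chosen by their P3 values, so the lower difference without them is set by that choice.

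For P1 against P21, the median of ratios gave 0.10 for SNORD115 and -1.57 for SNORD116, and SNORD115 was -1.20 scaled to the miRNA sum, -1.34 in alignments and -1.22 with whole windows only, in place of -1.83. For P15 against P21, SNORD116 was -0.24 scaled to the snoRNA sum, -0.22 scaled to the miRNA sum and -0.29 by median of ratios.

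Ages of the highest and lowest summed level are given in days after birth. SNORD115 was highest at 15 days scaled to the snoRNA sum, 10 by median of ratios and in read set B, and 21 without the 4 copies, in place of 3. It was lowest at 7 days, in place of 1, scaled to the snoRNA sum, by median of ratios, in read set A and without the 4 copies. SNORD116 was highest at 21 days, in place of 3, scaled to the snoRNA sum, by median of ratios, in read set B and without the 4 copies, and lowest at 5 days by median of ratios and 3 in read set B, in place of 1. The read set B ages of SNORD116 hold for the closer sum, and with the other sum they were 3 (highest) and 1 (lowest), as deposited. That 3 days was not the highest age without the 4 copies is partly set by their choice. Leaving out single ages gave a highest age from 3 to 10 days and a lowest from 1 to 7 for SNORD115, and from 3 to 21 and from 1 to 5 for SNORD116.

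At P1, 4 SNORD115 copies were at least 2-fold from P21 scaled to the miRNA sum, in place of 7. By median of ratios 6 were, of which 2 were lower and 4 higher. For SNORD116 the count of 25 became 15 by median of ratios, and 14 of 14 copies with at least 3 alignments. At P1 the copies had few alignments: 135 fell on all 37 copies, out of an estimated 318787 over all features.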

Other observations

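Each age is 1 pooled library, so animal, litter, dissection and library cannot be told apart from age. The read sets were inferred from the deposited values, and how they relate to sequencing runs was not tested. Whole numbers of alignments show that no read was divided between copies in fractions, and whether a read was counted at 1 copy or at several is unknown. Partial windows give large FPKM to few alignments, and the levels of SNORD115 copies 10 to 12 and of the 8 partial SNORD116 copies rest on such windows. Full-length and fragmented snoRNA molecules were not separated.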
